A study of Mus musculus with 5 samples.

Results

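The 8 cardiac transcription factor genes Gata4, Tbx5, Nkx2-5, Tbx20, Hand1, Hand2, Isl1 and Mef2c were followed through DamID maps of SOX7, FLI1 and ERG from mouse endothelial precursor cells. They were taken by symbol from the 3 gene lists, which together hold 12507 Ensembl genes, and each of the 8 had a peak in at least 1 list. The share of all protein-coding genes with a peak in at least 1 list was not counted. Of all 21900 protein-coding genes 23.1% were listed for SOX7, 35.5% for FLI1 and 5.79% for ERG. DamID joins a chromatin protein to the bacterial methylase Dam, which methylates the adenine of GATC near the places where the protein meets DNA, and the methylated fragments are sequenced. The tested libraries were SOX7-Dam from the line iSox7::Dam, FLI1-Dam from IFli1::Dam and ERG-Dam from iErg::Dam, with 1 library each. The controls were 2 libraries of Dam without a factor from the line iDam, 1 used for SOX7 and the other for both FLI1 and ERG. All lines are labelled as derivatives of Ainv18. All cells were made from embryonic stem cells in the same way. FLK1+ cells were taken from embryoid bodies at day 3 and grown for 1 day in blast medium, and cKIT+ TIE2+ cells were then sorted. Each factor was studied in its own line and with 1 library, so a factor cannot be told apart from its line. The factors are set side by side without p-values, because nothing measures the spread between replicates. FLI1 and ERG peaks also share their control library.

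The heart forms from mesoderm under a small set of transcription factors that bind to shared enhancers and activate one another. GATA4 is a zinc finger factor, TBX5 and TBX20 are T-box factors, NKX2-5 is a homeodomain factor, HAND1 and HAND2 are basic helix-loop-helix factors, ISL1 is a LIM homeodomain factor and MEF2C is a MADS box factor. Cardiac and endothelial cells both arise from FLK1+ mesoderm. SOX7 belongs to the SOXF group and FLI1 and ERG to the ETS family, all of them regulators of endothelial and blood development. DamID reports contact with DNA and no transcript level, so whether the 8 genes were expressed in these cells was not measured.

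Each factor, taken by itself, had peaks at 5 to 7 of the 8 genes. FLI1 had peaks at 7 of them (87.5%, exact binomial 95% interval 47.4 to 99.7), every gene except Mef2c, while 35.5% of all 21900 protein-coding genes were listed for FLI1. SOX7 had peaks at 6 of the 8 (75.0%, 34.9 to 96.8), every gene except Hand1 and Isl1, against 23.1% of all protein-coding genes. ERG had peaks at 5 of the 8 (62.5%, 24.5 to 91.5), namely Gata4, Tbx5, Nkx2-5, Hand1 and Isl1, against 5.79% of all protein-coding genes. All 3 factors had peaks at Gata4, Tbx5 and Nkx2-5, 3 of 8 genes (37.5%, 8.52 to 75.5), against 3.38% of all protein-coding genes. SOX7 and FLI1 had 5 of the 8 in common and so did FLI1 and ERG, against 16.7% and 4.74% of all protein-coding genes. All 5 ERG genes were also FLI1 genes, as were 81.9% of all ERG protein-coding genes, and 5 of the 6 SOX7 genes were FLI1 genes, as were 72.1% of all SOX7 protein-coding genes. Of the 7 genes listed for FLI1, 5 were listed for ERG, against 13.4% of all FLI1 protein-coding genes. Among genes with 2 or more FLI1 peaks, 4 of the 6 cardiac genes were listed for ERG, against 20.7% of all such protein-coding genes. The intervals cover counting error only, and 8 genes leave them wide. These genes and the lists compared below were chosen with earlier results of these data known. Their intervals are therefore not a test against the shares of all genes.

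**Figure D1:**
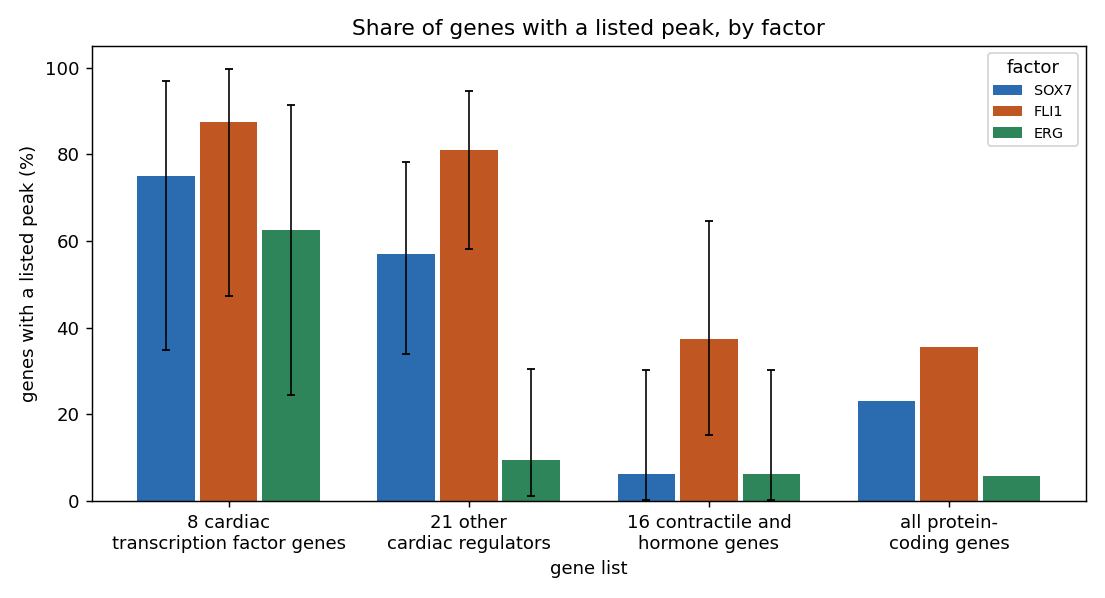
Share of genes with at least 1 listed peak (percent, vertical axis) for SOX7, FLI1 and ERG in 4 gene lists; bars are shares and error bars exact binomial 95% intervals, with none drawn for all 21900 protein-coding genes. The 8 cardiac transcription factor genes stand at 75.0%, 87.5% and 62.5%, and all protein-coding genes at 23.1%, 35.5% and 5.79%.

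Promoter sequences from RefSeq (build GRCm38.p6) were matched by symbol for 5 of the 8 genes, Nkx2-5, Tbx20, Hand2, Isl1 and Mef2c, the last with 3 alternative starts. Below, 1 gene is shown for each way of being listed, so that the letters the assay and the factors read can be seen: Nkx2-5 for all 3 factors, Isl1 for FLI1 and ERG, Tbx20 for SOX7 and FLI1, and the most upstream start of Mef2c for SOX7 alone. Each is the 250 bases before the annotated start, 5′ to 3′ on the gene's strand, and capitals mark GATC, the ETS core GGAA or its complement TTCC, and the SOX core ACAAT or its complement ATTGT. The windows are chr17:26841566-26841815 (minus strand) for Nkx2-5, chr13:116309689-116309938 (minus) for Isl1, chr9:24774304-24774553 (minus) for Tbx20 and chr13:83503784-83504033 (plus) for Mef2c.
Nkx2-5: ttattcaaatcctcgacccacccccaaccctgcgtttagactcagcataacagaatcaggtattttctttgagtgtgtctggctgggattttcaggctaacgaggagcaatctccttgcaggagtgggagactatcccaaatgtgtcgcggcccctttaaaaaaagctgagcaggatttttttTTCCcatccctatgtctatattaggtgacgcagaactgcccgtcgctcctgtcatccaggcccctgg
Isl1: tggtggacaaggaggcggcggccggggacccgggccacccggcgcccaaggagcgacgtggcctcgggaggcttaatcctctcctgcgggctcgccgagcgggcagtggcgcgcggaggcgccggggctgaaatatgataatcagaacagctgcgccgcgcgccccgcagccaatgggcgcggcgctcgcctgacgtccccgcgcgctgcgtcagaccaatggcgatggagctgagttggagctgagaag
Tbx20: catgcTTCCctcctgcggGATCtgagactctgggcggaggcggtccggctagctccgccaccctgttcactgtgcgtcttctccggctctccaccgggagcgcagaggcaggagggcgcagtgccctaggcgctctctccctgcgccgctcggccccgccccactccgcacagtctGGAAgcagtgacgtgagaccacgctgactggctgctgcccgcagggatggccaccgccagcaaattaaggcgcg
Mef2c: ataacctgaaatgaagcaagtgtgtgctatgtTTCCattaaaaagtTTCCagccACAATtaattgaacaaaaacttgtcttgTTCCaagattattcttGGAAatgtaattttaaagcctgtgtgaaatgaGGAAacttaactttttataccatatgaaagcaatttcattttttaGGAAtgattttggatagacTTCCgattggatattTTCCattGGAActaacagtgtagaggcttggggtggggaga
The Nkx2-5 window held 1 ETS core and neither GATC nor a SOX core. The Isl1 window held none of the 3 motifs, nor did the Hand2 window, which is not printed. Tbx20 had 1 GATC and 2 ETS cores. The printed Mef2c window had 9 ETS cores, 1 SOX core and no GATC. Of its other windows, 1 had 2 ETS cores and 1 GATC and the other had 1 ETS core, and neither held a SOX core. Searched on both strands, 41.9% of 32851 windows of this length in the RefSeq table held a GATC, 93.4% an ETS core and 27.7% a SOX core, and no base of the printed windows belonged to 2 motifs. The peaks are placed on mm9, a different build, so whether a peak covers a printed window, an exon or an intron was not determined, and a match or its lack says nothing about binding.

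At Gata4, whose product drives early heart and endoderm genes, each of the 3 factors covered more bases than at any other of the 8 genes. SOX7 had 3 peaks at chr14:63850593-63854843, chr14:63857443-63863443 and chr14:63866043-63870093 (mm9) with 769 reads in all (95% Poisson interval 716 to 825). FLI1 had 2 peaks, at chr14:63851957-63853907 and chr14:63857907-63870107, with 1884 reads (1800 to 1971). ERG had 2, at chr14:63866023-63868823 and chr14:63883323-63884123, with 139 reads (117 to 164). The longer FLI1 peak measured 12201 bp and was among the 4 longest of the 16834 FLI1 peaks. It took in all of the third SOX7 peak, 92.3% of the middle one and all of the first ERG peak. Peaks of all 3 factors had 2781 bases in common, at chr14:63866043-63868823. The second ERG peak, 801 bp long, lay 13.2 kb from the nearest peak of another factor.

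Nkx2-5, an early marker of cardiac progenitors, had 1 SOX7 peak, 3 FLI1 peaks and 1 ERG peak. The SOX7 peak at chr17:26986791-26988641 held 162 reads (138 to 189). The FLI1 peaks at chr17:26968936-26971236, chr17:26979336-26982536 and chr17:26984036-26988936 held 1291 reads (1222 to 1363). The ERG peak at chr17:26986754-26988804 held 250 reads (220.0 to 283). All 1851 bases of the SOX7 peak lay inside both the ERG peak and the FLI1 peak at the high end of the locus. The other FLI1 peaks lay 4.22 and 15.5 kb from the nearest SOX7 or ERG peak.

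Tbx5, needed for the left ventricle, atria and forelimb, showed the same kind of nesting over a longer stretch. SOX7 had 1 peak of 901 bp at chr5:120324955-120325855 with 101 reads (82.3 to 123). FLI1 had 4 peaks, at chr5:120271421-120272771, chr5:120285021-120290671, chr5:120314671-120317171 and chr5:120324471-120327171, with 1206 reads (1139 to 1276). ERG had peaks at chr5:120286049-120287599 and chr5:120324949-120326149 with 98 reads (79.6 to 119). Both ERG peaks lay wholly inside FLI1 peaks, and the SOX7 peak lay wholly inside the second ERG peak. The 3 factors therefore met in 1 of the 4 FLI1 regions of Tbx5, FLI1 and ERG met in another, and FLI1 stood alone in the other two.

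Tbx20 and Hand2 had SOX7 and FLI1 peaks and no ERG peak. At Tbx20, a repressor and activator in the heart chambers, SOX7 had peaks at chr9:24572354-24575554 and chr9:24579204-24581854 with 515 reads (471 to 561). FLI1 had peaks at chr9:24531251-24532251 and chr9:24574151-24584401 with 1164 reads (1098 to 1233). The longer FLI1 peak, 10251 bp, was among the 9 longest of its list and covered all of one SOX7 peak and 43.9% of the other. At Hand2, which acts in the second heart field and the limb bud, SOX7 had peaks at chr8:59788941-59790491, chr8:59792441-59793991 and chr8:59797091-59798541 with 114 reads (94.0 to 137). FLI1 had peaks at chr8:59771735-59772685, chr8:59788935-59795235, chr8:59795535-59798735 and chr8:59801285-59802635 with 518 reads (474 to 565). All 3 SOX7 peaks lay wholly inside FLI1 peaks. The nearest ERG peak was 2113 kb from the Tbx20 peaks, at a peak assigned to Bbs9, and 3958 kb from the Hand2 peaks, at Sh3rf1.

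FLI1 peaks went on beyond Hand2, into a neighbour chosen after its values were seen. The long non-coding RNA gene 5033428I22Rik, listed in RefSeq under the symbol Hdnr, had 3 FLI1 peaks, the nearest at chr8:59804885-59810285, 2.25 kb past the last Hand2 peak, with 554 reads at 63.7 reads per kb over the 3. No SOX7 or ERG peak assigned to another gene lay within 100 kb of the Hand2 peaks.

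Hand1 and Isl1 were listed for FLI1 and ERG and not for SOX7. Hand1, which acts in the left ventricle and in the placenta, had 1 FLI1 peak at chr11:57645784-57647184 with 261 reads (230.3 to 295) and 1 ERG peak at chr11:57644786-57647086 with 119 reads (98.6 to 142). They had 1303 bases in common, 93.0% of the FLI1 peak. Isl1, which marks progenitors of the second heart field, had 3 FLI1 peaks at chr13:117083542-117086492, chr13:117091442-117094492 and chr13:117096792-117099792 with 709 reads (658 to 763). Its ERG peak at chr13:117083519-117084519 held 24 reads (15.4 to 35.7), the fewest of any listed value of the 8 genes, and shared 978 bases with a FLI1 peak. The nearest SOX7 peak was 33.6 kb from the Hand1 peaks, assigned to the pseudogene Gm12244, and 716 kb from the Isl1 peaks, assigned to Parp8. Absence from a list means that no peak was assigned to the gene, not that no reads lay there.

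Mef2c was the only one of the 8 genes listed for SOX7 alone. MEF2C acts in heart and skeletal muscle and in endothelium. Its SOX7 peaks at chr13:83702553-83703453 and chr13:83766903-83767953 held 74 reads in all (58.1 to 92.9) and lay at opposite ends of a stretch of 65401 bp. Both were shorter than the SOX7 median of 1451 bp. The nearest FLI1 peak was 109 kb away and is assigned to C130071C03Rik, and the nearest ERG peak was 9594 kb away.

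**Figure D2:**
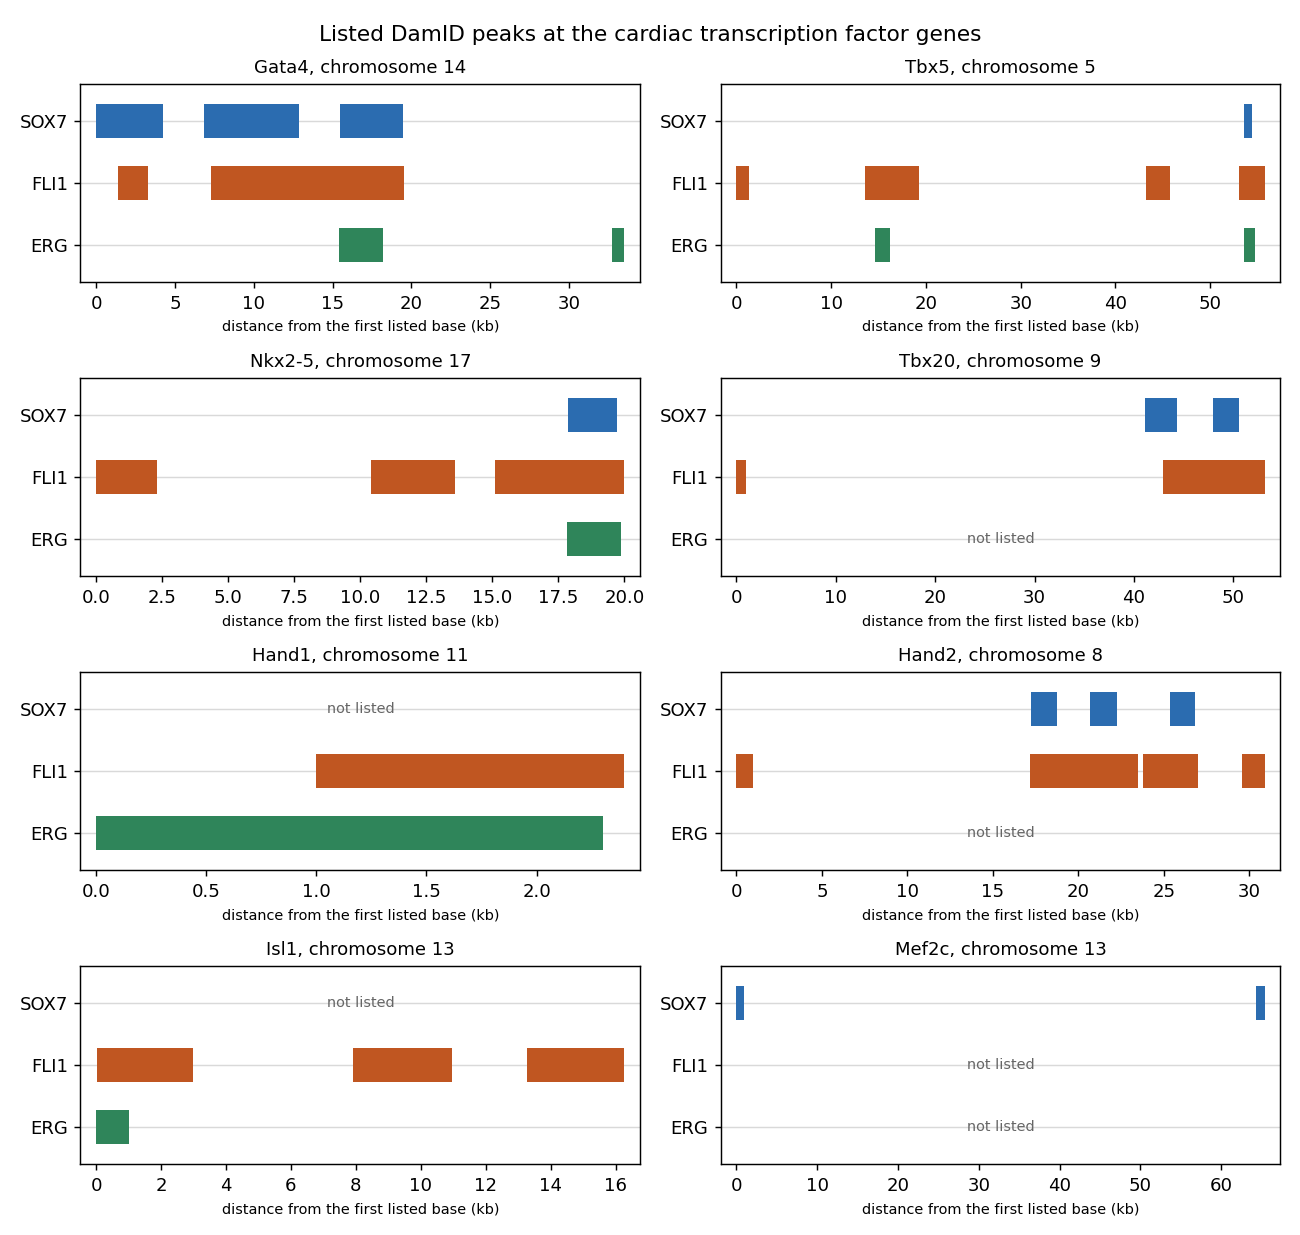
Listed peaks of SOX7, FLI1 and ERG (rows) at each of the 8 genes; the horizontal axis is the distance in kb from the first listed base of that gene's peaks on mm9, and each bar is 1 peak to scale, with a scale of its own in each panel. At Gata4, Tbx5 and Nkx2-5 peaks of all 3 factors met in 1 place, at Tbx20 and Hand2 SOX7 and FLI1 met, at Hand1 and Isl1 FLI1 and ERG met, and at Mef2c neither of the 2 SOX7 peaks met another peak.

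Counted over all 8 genes, there were 12 SOX7, 19 FLI1 and 7 ERG peaks. Every one was assigned to a single gene, but how often this holds over the whole lists was not counted. Of the SOX7 peaks 10 met a FLI1 peak, with 1 bp as the least overlap counted (83.3%, 51.6 to 97.9), every SOX7 peak except those of Mef2c, against 35.2% of all SOX7 peaks. Of the ERG peaks 6 overlapped a FLI1 peak (85.7%, 42.1 to 99.6), all but the second one of Gata4, against 49.3% of all ERG peaks. SOX7 was met by 3 of the 7 ERG peaks (42.9%, 9.90 to 81.6), against 32.4% of all ERG peaks, and ERG by 3 of the 12 SOX7 peaks (25.0%, 5.49 to 57.2), against 5.13% of all SOX7 peaks. Of the 19 FLI1 peaks 7 met SOX7 (36.8%, 16.3 to 61.6) and 6 met ERG (31.6%, 12.6 to 56.6), against 20.9% and 4.63% of all FLI1 peaks. Every partner peak was assigned to the same cardiac gene. The intervals of ERG peaks with FLI1, of ERG peaks with SOX7 and of FLI1 peaks with SOX7 span the shares of the whole lists. That of SOX7 peaks with ERG begins just above its own. All these intervals treat each peak as independent, although several peaks belong to the same gene. They are therefore not a test against those shares.

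Merging overlapping peaks gave 22 regions at the 8 genes. All 3 factors were present in 3 of them (13.6%), against 411 of 23972 regions in all (1.71%), and FLI1 with ERG in another 3 (13.6%), against 374 (1.56%). SOX7 with FLI1 held 4 (18.2%), against 3078 (12.8%). FLI1 alone held 9 (40.9%), against 12935 (54.0%), SOX7 alone 2 (9.09%), against 6377 (26.6%), and ERG alone 1 (4.55%), against 674 (2.81%). No region at these genes held SOX7 and ERG without FLI1, a class that was also rare in all regions, at 123 (0.513%). Peaks of 1 gene are neighbours on 1 chromosome and are not independent of each other.

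In each list the peaks of these genes had a longer median than the list. Over the whole lists, longer peaks met another factor more often in the pairs counted below. The 19 FLI1 peaks ranged from 951 to 12201 bp with a median of 2951 bp, against 1651 bp over the list. The 12 SOX7 peaks ranged from 901 to 6001 bp with a median of 1701 bp, against 1451 bp, and those of Tbx5 and Mef2c lay below the list median. The 7 ERG peaks ranged from 801 to 2801 bp with a median of 1551 bp, against 951 bp. Of the 8 SOX7 peaks longer than the list median all 8 met FLI1, against 43.9% of all such SOX7 peaks, and of the 6 such ERG peaks all 6 met FLI1, against 64.3%. Of the 14 such FLI1 peaks 7 met SOX7 and 5 met ERG, against 27.0% and 6.40%. The part of peak length in the overlap was not tested beyond this split.

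**Figure D3:**
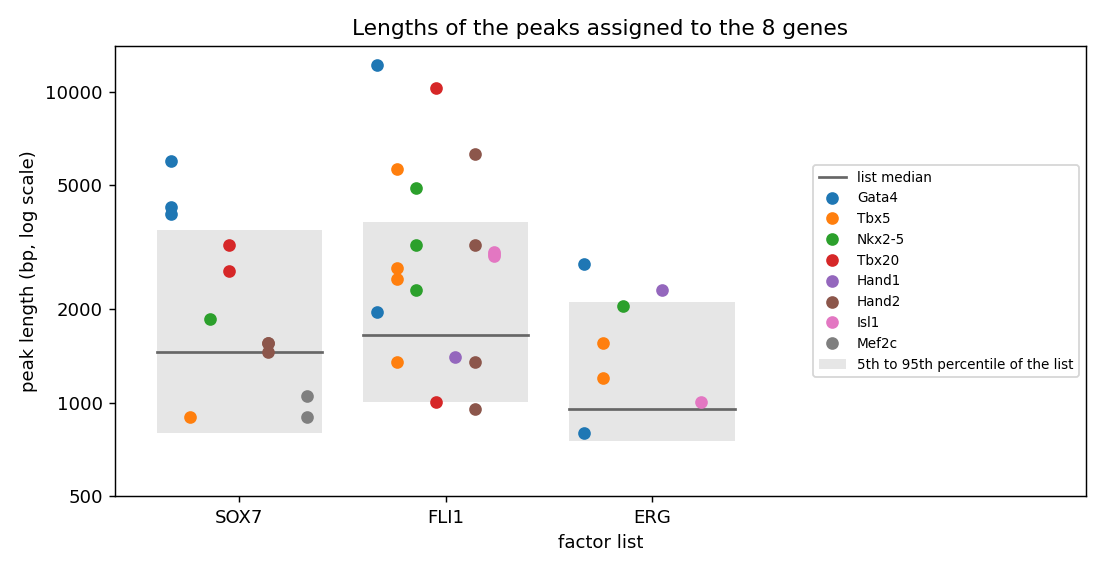
Length of each peak assigned to the 8 genes (bp, log scale) in the SOX7, FLI1 and ERG lists; points are peaks coloured by gene, grey bars run from the 5th to the 95th percentile of the list and lines mark its median. The longest are FLI1 peaks of Gata4 (12201 bp) and Tbx20 (10251 bp), and both Mef2c peaks lie below the SOX7 median of 1451 bp.

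The FLI1 peaks assigned to 6 of these genes added up to long stretches. Summed over its peaks, Gata4 had 14152 bases under FLI1 peaks, Tbx5 12204, Hand2 11804, Tbx20 11252, Nkx2-5 10403 and Isl1 9003, each above percentile 90 of the 10246 genes of the list (10.0% of the list by construction). Hand1 had 1401 bases and stood at percentile 23.5. Above percentile 90 were thus 6 of 7 genes for FLI1, 2 of 6 for SOX7 (Gata4 and Tbx20; 9.98% of the list) and 3 of 5 for ERG (Gata4, Tbx5 and Hand1; 9.75% of the list). The median gene had 2251 bases for FLI1, 1851 for SOX7 and 1001 for ERG.

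Read density, the authors' read count per kb of peak, orders the genes within each list but is not scaled between libraries, and for a gene with several peaks it is a mean over them. In the FLI1 list Hand1 had 186 reads per kb (164 to 210.3), Gata4 133 (127 to 139), Nkx2-5 124 (117 to 131), Tbx20 103 (97.6 to 110), Tbx5 98.8 (93.3 to 105), Isl1 78.8 (73.1 to 84.8) and Hand2 43.9 (40.2 to 47.8). The intervals of Gata4 and Nkx2-5 overlapped, as did those of Tbx20 and Tbx5, and those of the other neighbours in this order did not. These densities put Hand1 at percentile 96.7 of the list, Gata4 at 90.1, Nkx2-5 at 87.9, Tbx20 at 80.1, Tbx5 at 77.6, Isl1 at 61.3 and Hand2 at 14.8.

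In the SOX7 list Tbx5 had 112 reads per kb (91.3 to 136), Tbx20 88.0 (80.6 to 95.9), Nkx2-5 87.5 (74.6 to 102), Gata4 53.8 (50.0 to 57.7), Mef2c 37.9 (29.8 to 47.6) and Hand2 25.0 (20.7 to 30.1). Tbx5, Tbx20 and Nkx2-5 overlapped in their intervals, and so did Mef2c and Hand2, while Gata4 stood between these 2 sets and clear of both. Their percentiles were 93.9 for Tbx5, 86.9 for Tbx20, 86.6 for Nkx2-5, 57.4 for Gata4, 30.3 for Mef2c and 6.75 for Hand2. By density Hand2 was the lowest of the 8 genes in both lists that held it. By read count it stood at percentile 57.2 for SOX7, above Tbx5 at 52.4 and Mef2c at 39.3, and at 87.8 for FLI1, above Hand1 at 68.1.

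In the ERG list Nkx2-5 had 122 reads per kb (107 to 138), clear of the intervals of the other 4 genes. This was 3.85 times the median of the list. Hand1 had 51.7 (42.8 to 61.9), Gata4 38.6 (32.4 to 45.6), Tbx5 35.6 (28.9 to 43.4) and Isl1 24.0 (15.4 to 35.7), and each of these overlapped its neighbour in the order. Nkx2-5 was 82nd of 1579 genes, at percentile 94.8, and the others stood at 72.1, 59.4, 55.7 and 34.4. The median percentile of the listed genes was 80.1 over 7 genes for FLI1, 72.0 over 6 for SOX7 and 59.4 over 5 for ERG, where the median over a whole list is 50 by construction.

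**Figure D4:**
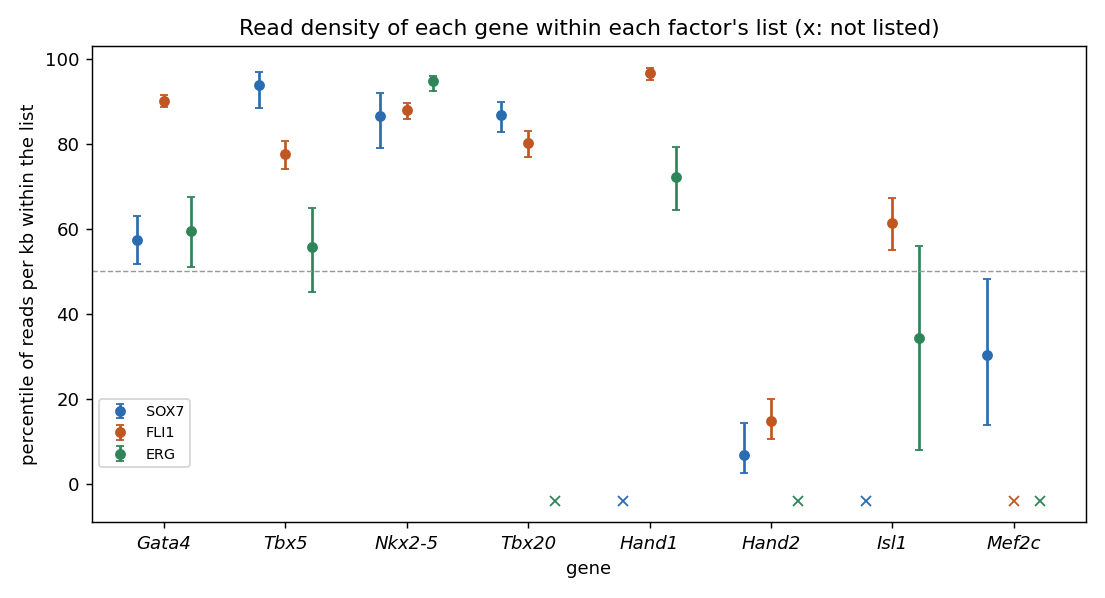
Percentile of reads per kb of each gene within the SOX7, FLI1 and ERG lists (vertical axis); points are genes, error bars are the percentiles at the ends of the 95% Poisson interval of the read count, crosses mark genes that are not listed and the dashed line is the list median. Nkx2-5 stands at 86.6, 87.9 and 94.8 in the 3 lists and Hand2 at 6.75 and 14.8 in the SOX7 and FLI1 lists.

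Some genes were alike in their place in the 3 lists. Among 754 protein-coding genes listed for all 3 factors, the gene nearest to Gata4 by the distance between their 3 density percentiles was Icam2, which encodes an endothelial adhesion molecule, at 3.95 points. The nearest to Nkx2-5 was Tcte2 at 4.32 points and the nearest to Tbx5 was Dhrs7 at 7.23 points. Likeness over 3 values describes these lists and says nothing of function.

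Other regulators of heart development, and genes of the contractile apparatus, were counted in the same lists. Of 21 cardiac regulators outside the 8, FLI1 had 17 (81.0%, 58.1 to 94.6), SOX7 12 (57.1%, 34.0 to 78.2) and ERG 2 (9.52%, 1.18 to 30.4), against 35.5%, 23.1% and 5.79% of all protein-coding genes. The ERG share is near that of all genes and its interval spans it. Tbx1, Tbx2 and Foxc2 were in no list. Tbx3 and Tead1 were listed for all 3. Tbx3, a repressor in the conduction system, had 1 peak from each factor, with 160 SOX7 reads at percentile 95.5, 643 FLI1 reads at percentile 89.6 and 136 ERG reads at percentile 66.9. Tead1, a partner of the Hippo pathway coactivators, had 7 SOX7, 11 FLI1 and 1 ERG peaks, at percentiles 62.8, 72.4 and 54.1 of those lists. Of 16 genes for contractile proteins, calcium handling and cardiac hormones, FLI1 had 6 (37.5%, 15.2 to 64.6) and SOX7 and ERG 1 each (6.25%, 0.158 to 30.2). Ryr2, the calcium release channel, was the gene listed for all 3. It had 59 SOX7, 1391 FLI1 and only 17 ERG reads, at percentiles 37.7, 30.3 and 12.8 of those lists. In no list were 10 of the 16, among them Myh6, Myh7, Tnnt2, Nppa and Actc1. How many of all protein-coding genes are absent from every list was not counted. Whether these 10 are more than a random set would give was therefore not determined, and their absence is not read as a trait of these genes. The intervals span the shares of all protein-coding genes, 35.5% for FLI1, 23.1% for SOX7 and 5.79% for ERG.

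Chosen relatives of the 8 genes by protein family, not every member of those families, were counted in the same way. Of 31 such genes FLI1 had 21 (67.7%, 48.6 to 83.3), SOX7 11 (35.5%, 19.2 to 54.6) and ERG 4 (12.9%, 3.63 to 29.8), against 35.5%, 23.1% and 5.79% of all protein-coding genes. The SOX7 and ERG intervals span these shares. Gata3, Tbx3 and Tbx19 were listed for all 3. Gata3, a regulator of T cells and other lineages, stood at percentiles 78.1, 70.5 and 68.1 of the SOX7, FLI1 and ERG lists. Tbx19, a pituitary factor, stood at 20.2, 63.8 and 62.6. Some genes, Tbx3 among them, are in both this list and that of the cardiac regulators, so the counts are not independent.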

How the data were processed

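Genomic DNA was prepared for DamID and sequenced as single reads of 60 bp from libraries of 50 ng with 10 cycles of amplification, per the labels' protocols. Peaks were called against the Dam-only library of each factor, per the labels. Per the submitters' processing notes the genome build is mm9. The aligner, the peak caller with its threshold and the way peaks were tied to genes are not stated in them. The deposited read count is a whole number of reads over all peaks of a gene. The deposited signal is that count per kb of summed peak length, and recomputing it matched all 6530 SOX7, 10246 FLI1 and 1579 ERG rows to rounding. Library depth is unknown and values are compared only within a list. The Dam-only libraries have no peak list analysed here.

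The 8 genes and the other lists were chosen with earlier results of these data known. Percentiles are mid-ranks among all genes of a list. Lengths count both end bases. Overlap was counted between unique peaks with at least 1 bp, and regions are chains of overlapping peaks. The background of 21900 protein-coding genes is from RefSeq symbols, current or older, which matched 96.5%, 95.6% and 95.7% of the protein-coding rows of SOX7, FLI1 and ERG. Named genes are the 8, list genes with peaks of all 3 factors, and for each of the 8 listed for all 3 the gene nearest in its percentiles. One planned list gene is not reported here. Neighbours, genes in no list and splits by peak length or number were chosen after values were seen. Intervals cover counting error only, since amplified reads without molecular identifiers are not independent molecules. Overlap, merging and ranking were tested on simulated data. Python 3.11.15, numpy 2.4.6, pandas 2.3.3 and scipy 1.17.1 were used.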

Additional observations from a re-analysis of the deposited data

How the results depend on the processing

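No paired analysis was possible because each group has 1 library, and leaving out a replicate could not be done. The shares over all genes, peaks and regions were not recounted under the alternatives. The counts below therefore cannot show whether a difference from those shares holds there. The 3 regions of all 3 factors stayed 3 under every alternative run for them, namely the denser 50% of each list, genes of at least 50 reads, a base common to all 3, peaks up to 1 kb apart and assignment of all 3 peaks to the gene. Matching by Ensembl identifier changed none of the counts of the 8 genes. Those identifiers came from rows already matched by symbol, so these counts could not have fallen. An overlap of 100 bp or a gap of 1 kb changed none of the 6 overlap counts. An overlap of at least 50% of the shorter peak lowered SOX7 with FLI1 from 10 to 9 and changed no other overlap count. In the denser 50% of each list the SOX7 peaks of the 8 genes numbered 7, and all 7 met FLI1. The FLI1 peaks numbered 15 in that setting, of which 5 met SOX7 and 5 met ERG. There the cardiac regulators numbered 7 for SOX7 and 9 for FLI1, the relatives by family 5 for SOX7 and 11 for FLI1, and the contractile and hormone genes 0 for SOX7 and 0 for ERG. With at least 50 reads per gene, ERG had 1 cardiac regulator and 0 contractile and hormone genes. Of the 8 genes, the denser 50% kept 4 for SOX7, 6 for FLI1 and 4 for ERG. At least 50 reads kept 6, 7 and 4, as did a limit of 30 reads, added after seeing the data. The ERG peaks numbered 6 in both planned settings, and 5 of them met FLI1. Ranked by read count, which adds up over the peaks of a gene, the median percentile of the 8 genes was 64.2 for SOX7, 97.9 for FLI1 and 89.0 for ERG. Of 18 single percentiles by read count, 16 lay outside the counting interval of the density percentile, with Hand2 at 57.2 for SOX7 and 87.8 for FLI1. Read count is a different measure, so its rank need not fall in that interval. Ranked by density among protein-coding genes, 18 of 18 stayed inside the interval. Depth limits Isl1 in the ERG list most, where 24 reads allow percentiles from 7.92 to 55.9.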

Other observations

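Other genes next to these loci also carried peaks, given here for genes chosen after their values were seen. Near Tbx20, Dpy19l2 had 1 SOX7 peak at chr9:24499254-24501104 with 153 reads (percentile 84.2 of the list) and 1 FLI1 peak at chr9:24499951-24501151 with 190 reads (percentile 94.3), and no ERG peak lay within 100 kb of the Tbx20 peaks. Near Hand1, the pseudogene Gm12244 had 164 reads in 2 SOX7 peaks and 771 reads in 4 FLI1 peaks, while Hand1 itself had no SOX7 peak. The protein-coding gene Gm11003 had 1 FLI1 peak with 221 reads, 16.4 kb from the Hand1 peaks. Near Gata4, Fdft1, an enzyme of sterol synthesis, had 1 SOX7 peak with 88 reads, 52.7 kb away, and Blk, a kinase of B cells, had 2 FLI1 peaks with 592 reads, the nearer 76.4 kb away. At Tbx5, Nkx2-5, Isl1 and Mef2c no peak of any list within 100 kb was assigned to another gene.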
